A study of Homo sapiens with 21 samples.

Results

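The libraries compared here came from SK-N-BE(2) cells transduced with either of a pair of hairpins that carry the same target in their labels, shARID1B.2 and shARID1B.3. Members were chosen by label alone, as the 3 libraries labelled shARID1B.2 and the 3 labelled shARID1B.3, and they are 6 of the 21 RNA-Seq libraries of the series. SK-N-BE(2) is an established neuroblastoma cell line with MYCN amplification, grown in IMDM with 20% foetal bovine serum and insulin-transferrin-selenium. Both groups received lentiviral particles with an shRNA, a short hairpin RNA that is processed into a guide strand and lowers the level of transcripts pairing with it, and RNA was taken after 72 h in biological triplicates. The other 15 libraries were a non-silencing control, the pair shARID1A.2 and shARID1A.4, and the pair of combinations shARID1A/B.2.3 and shARID1A/B.4.2, with 3 libraries each. None of the 15 entered the fit of shARID1B.2 against shARID1B.3, so that each difference below is between the hairpins and not from the control. A hairpin difference and a difference in the depth of silencing cannot be told apart in this design.

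ARID1A and ARID1B are mutually exclusive subunits of BAF, the SWI/SNF chromatin remodeller that moves nucleosomes and keeps enhancers accessible. Hairpins designed against the same transcript share the intended target but not the sequence of their guide strands. The 5′ end of a guide, its seed, can pair with short complementary stretches in the 3′ untranslated region (UTR) of other messages and lower them, as microRNAs do. The sequences of the hairpins are in none of the files used here.

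The libraries held 27954334 to 37489242 reads for shARID1B.2 and 35048596 to 41077638 for shARID1B.3. Values below are the deposited ones, in which the reads of each library were scaled by its size factor. They summed to 32361633 to 32815053 per library for shARID1B.2, 34891114 to 35469738 for shARID1B.3 and 35625617 to 35919784 for the control. Log2 differences are on log2 of the value plus 1 and are given as shARID1B.2 minus shARID1B.3, with the standard error, so that a negative value is lower for shARID1B.2. The adjusted p-values are those of limma over all genes tested with Benjamini-Hochberg adjustment, and a called gene has an adjusted p-value under 0.05. Over all genes the first principal component took 77.2% of the variance and separated the labels, and the second took 6.34%. Reads from mitochondrially encoded genes were 6.82 to 7.22% for shARID1B.2 and 6.66 to 7.13% for shARID1B.3, and reads from cytosolic ribosomal proteins 6.31 to 6.47% and 5.87 to 6.02%.

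The targeted genes were read first, and they went against the label. ARID1A (chr1:26693236-26782110, plus strand, GRCh38) had values of 1962, 1882 and 1916 in the libraries labelled shARID1B.2 and 2507, 2479.9 and 2449.7 in those labelled shARID1B.3, against 6097 to 6463 in the control. This is 30.43% and 39.27% of the control mean, and both groups lay below all control libraries without overlapping each other. ARID1B (chr6:156776020-157210779, plus strand) had values of 5056, 4913 and 5043 for shARID1B.2 and 6182, 6038 and 6053 for shARID1B.3, against 5791 to 5804 in the control, which is 86.33% and 105.09% of the control mean. The gene named in the label was thus close to its control level, and the other subunit was the low one, in all 6 libraries. As all of them go against the label in this way, no result can be given without such libraries, and the groups are called by their labels throughout. The other labels went against these genes too. In the libraries labelled shARID1A.2 and shARID1A.4 both genes were low, with ARID1A at 34.0% and 35.55% of the control mean and ARID1B at 38.67% and 53.49%. In the combinations shARID1A/B.2.3 and shARID1A/B.4.2, ARID1B was low, at 44.85% and 32.9%, and ARID1A stood at 89.66% and 86.19%. Each pair is called by its label below, which does not state the genes that were low in it.

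The levels of ARID1A and ARID1B also differed between the hairpins. The log2 difference of ARID1A was -0.37 ± 0.029 (adjusted p = 3.1e-07) and that of ARID1B -0.28 ± 0.024 (adjusted p = 5.35e-07), both lower for shARID1B.2. With scaling to total reads the difference of ARID1B was -0.175 (adjusted p = 3.88e-05). The remaining ARID1A transcript was lower in 3 of 3 shARID1B.2 libraries than in any shARID1B.3 library, and the same held for ARID1B.

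Most of the transcriptome differed between the hairpins. Of 17186 genes tested, 12005 were called (69.9%), 6073 lower for shARID1B.2 (35.3%) and 5932 higher (34.5%). The groups did not overlap for 12512 genes (72.8%). A difference over 1 on the log2 scale, which is over 2-fold, was called for 2306 genes (13.4%), 902 lower (5.25%) and 1404 higher (8.17%). The median difference of all genes was -0.001. Since the deposited scaling differs from one to equal totals, the split of calls depends on it: with every library scaled to its total reads, the median moved to 0.106 and 7332 of 12105 calls were higher for shARID1B.2 (60.6%, against 49.4% as deposited), or 1714 of 2441 over 1 (70.2%, against 60.9%). Counts of gene groups below are to be read against these shares.

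The 12 genes with the largest lower differences at a mean value of 50 or more were led by VGF, SLC16A6 and NPTX1. VGF (chr7:101162509-101165593, minus strand), a granule protein that is cut into secreted peptides, had values of 1333, 1382 and 1532 for shARID1B.2 and 30655, 29358 and 25489.95 for shARID1B.3, a 20.1-fold difference (-4.33 ± 0.063, adjusted p = 3.04e-13). The control libraries lay in between, at 4416 to 4669, with the hairpins on opposite sides of them. NPTX1 (chr17:80467148-80477843, minus strand), neuronal pentraxin of excitatory synapses, had 26.3, 33.6 and 24.9 for shARID1B.2 and 449.97, 505 and 433 for shARID1B.3, with 31.7 to 42.5 in the control. Here the shARID1B.2 libraries reached into the control range and the shARID1B.3 libraries stood far above it (-4.00 ± 0.13, adjusted p = 1.15e-10). SLC16A6 (chr17:68267026-68291267, minus strand), a monocarboxylate transporter, had 18.4, 22.0 and 28.5 for shARID1B.2 and 379, 381 and 424 for shARID1B.3, against 15.7 to 17.5 in the control (-4.07 ± 0.15, adjusted p = 3.67e-10). RASAL1, a Ras GTPase-activating protein, followed the same order, with 7.88, 9.26 and 9.78 for shARID1B.2, 105, 88.4 and 93.3 for shARID1B.3 and 4.70 to 10.1 in the control (-3.27).

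A further set of the 12 was lower than the control for shARID1B.2 and above it for shARID1B.3. IL33 (chr9:6215786-6257983, plus strand), a nuclear alarmin cytokine, had 61.3, 67.1 and 71.1 for shARID1B.2 and 507, 715 and 594 for shARID1B.3, with 227 to 279 in the control (-3.16 ± 0.12, adjusted p = 3.82e-10). ABRACL (chr6:139028682-139043302, plus strand), a small protein related to actin regulators, had 155, 137 and 151 for shARID1B.2 and 1102, 1274 and 1169 for shARID1B.3, with 867 to 921 in the control (-2.99 ± 0.072, adjusted p = 9.24e-12). CIAO2B (chr16:66932055-66934423, minus strand), of the cytosolic iron-sulphur cluster assembly machinery, had 228, 223 and 243 for shARID1B.2 and 1839.7, 1882 and 1802 for shARID1B.3, with 1612 to 1689 in the control (-2.99 ± 0.049, adjusted p = 5.96e-13). For ABRACL and CIAO2B the shARID1B.2 libraries were the ones far from the control. The shARID1B.3 libraries lay just above it for CIAO2B and further above it for ABRACL. The secreted peptidase inhibitor PI15 (-3.67), the hair-cell protein LOXHD1 (-3.76), the transmembrane proteins SERTM2 (-3.64) and SERTM1 (-3.05) and the anoctamin ANO3 (-3.23) complete the set. In 9 of the 12 genes all control libraries lay between the hairpins, and the exceptions were SLC16A6, NPTX1 and RASAL1. The genes were picked for a wide gap between the groups, into which controls can fall, and the share over all genes was not counted. This count therefore describes the named genes only.

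Among the 12 largest higher differences were matrix, enzyme and histone genes. COL26A1 (chr7:101362820-101559024, plus strand), a collagen chain, had 532, 578 and 572 for shARID1B.2 and 25.9, 22.8 and 20.7 for shARID1B.3, a 24.2-fold difference (4.54 ± 0.11, adjusted p = 1.39e-11). The control libraries, at 220.5 to 234, lay between. SULF2 (chr20:47656348-47786616, minus strand), an extracellular sulphatase that edits heparan sulphate, had 1951, 2131 and 2073 for shARID1B.2 and 167, 162 and 163 for shARID1B.3, with 866 to 904 in the control (3.63 ± 0.051, adjusted p = 2.06e-13). MAOA (chrX:43654907-43746824, plus strand), monoamine oxidase A of catecholamine breakdown, had 853, 847 and 833 for shARID1B.2 and 94.6, 83.6 and 82.9 for shARID1B.3, with 135 to 143 in the control (3.27 ± 0.075, adjusted p = 6.59e-12). For MAOA the shARID1B.2 libraries were the ones far from the control. AIF1L (chr9:131096476-131123152, plus strand), an actin-bundling protein, had 405, 384 and 344 for shARID1B.2 and 50.8, 39.0 and 39.7 for shARID1B.3, with 455 to 490.2 in the control, so that the shARID1B.3 libraries were the ones far from it (3.11 ± 0.13, adjusted p = 6.51e-10).

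The metalloproteinase MMP28 (3.29), the ADP-ribosyltransferase ART4 (3.23), the calcium-binding CALN1 (3.17), the homeobox gene PKNOX2 (3.16), the sphingolipid phosphatase SGPP2 (3.11), dermatopontin DPT (3.09) and the histone H2BC12 (3.39) were also among them. The largest value of limma among the 12, that of the readthrough gene BLOC1S5-TXNDC5, rests on 258, 434 and 502 for shARID1B.2 against 0, 0 and 146 for shARID1B.3 (6.19 ± 1.44, adjusted p = 0.0023). It shares exons with TXNDC5 and its reads could be split between them, and the value depends on the test: it was 2.95 with edgeR and 3.04 with DESeq2, where it was not called (adjusted p = 0.329), both below COL26A1 (4.61 with either). Without shARID1B.3 replicate 3 it was 8.59. In 7 of the 12 genes all control libraries lay between the hairpins, namely COL26A1, SULF2, H2BC12, MAOA, ART4, CALN1 and SGPP2. As for the lower genes, this count describes genes picked for a wide gap.

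Of the 35 gene lists examined, that of ATF4 and its targets had the lowest median difference. ATF4 is the transcription factor of the integrated stress response, whose targets take up amino acids, make serine and asparagine and answer to stress. Of 31 genes tested, 27 were lower for shARID1B.2 and 3 higher, against 35.3% and 34.5% of all genes, and 20 were lower by over 1. Their median difference was -1.25, against -0.001 over all genes. ATF4 itself had 13879.9, 13777 and 13874 for shARID1B.2, 21835, 21943 and 22569.7 for shARID1B.3 and 14224 to 14703 in the control (-0.68 ± 0.021, adjusted p = 8.57e-11).

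The largest differences of the group were in stress and transport genes. GDF15, a secreted stress cytokine, had 0.88, 4.63 and 6.22 for shARID1B.2 and 40.8, 49.4 and 51.0 for shARID1B.3 (-3.50 ± 0.44, adjusted p = 1.93e-05), with 8.22 to 21.1 in the control. SLC7A11, the cystine importer, had 392, 386 and 397 for shARID1B.2 and 2620.2, 2683 and 2603 for shARID1B.3 (-2.75 ± 0.037, adjusted p = 1.59e-13), with 585 to 612 in the control. CHAC1, which degrades glutathione, had 122, 119 and 145 for shARID1B.2 and 673, 737 and 674 for shARID1B.3 (-2.43 ± 0.086, adjusted p = 2.04e-10), with 99.6 to 130.4 in the control. In these genes the shARID1B.3 libraries stood above both other groups. The transcription factors ATF3 (-1.92) and DDIT3 (-1.44) and asparagine synthetase ASNS (-1.57) were lower as well. ASNS had 2649, 2646 and 2619.7 for shARID1B.2, 7504, 8034 and 8008 for shARID1B.3 and 2383 to 2470.1 in the control. Read against the control libraries, all 3 shARID1B.3 libraries lay above them for 29 of the 31 genes, and all 3 shARID1B.2 libraries above them for 8 and below them for 20. Over all genes tested these shares were 34.7%, 34.6% and 37.5%. The genes called higher were VLDLR (0.18), DDIT4 (0.61) and CTH (1.07).

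The promoters of these genes were searched for the composite element bound by ATF4 with CEBP proteins, spelled TGATGNAA, on both strands. It was present in a promoter of 9 of 25 list genes found in RefSeq (36.0%), against 4.46% of all 27305 genes. Each promoter was 300 bases long. As the list was made of ATF4 and its targets, this share describes the list and not these libraries. The 8 tested genes with a match had a median difference of -1.72. The other tested genes of the list, which include those with no promoter found to search, had -1.13. A match is a description of letters and not of binding. The promoters of CHAC1 and ASNS, 250 bases before and 50 after the start (RefSeq, GRCh38.p14, plus and minus strand in turn), are shown as members of the list with the element, which is in capitals.
CHAC1, chr15:40953221-40953520: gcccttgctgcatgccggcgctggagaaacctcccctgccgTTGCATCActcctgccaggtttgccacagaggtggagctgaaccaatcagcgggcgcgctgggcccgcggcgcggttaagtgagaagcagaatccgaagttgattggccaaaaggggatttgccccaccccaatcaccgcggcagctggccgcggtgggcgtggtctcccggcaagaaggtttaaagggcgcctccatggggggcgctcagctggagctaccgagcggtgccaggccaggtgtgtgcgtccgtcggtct
ASNS, chr7:97872359-97872658: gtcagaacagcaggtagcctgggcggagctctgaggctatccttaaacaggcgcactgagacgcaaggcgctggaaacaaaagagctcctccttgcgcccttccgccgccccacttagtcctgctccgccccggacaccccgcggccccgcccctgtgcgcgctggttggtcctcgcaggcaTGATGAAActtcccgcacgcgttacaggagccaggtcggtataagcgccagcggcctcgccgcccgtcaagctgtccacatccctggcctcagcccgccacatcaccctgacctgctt

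Genes of the unfolded protein response, which serves folding in the endoplasmic reticulum, and of the heat shock response were mostly lower for shARID1B.2 too. Of 25 chaperone and heat shock genes, 20 were lower and 4 higher, with a median of -0.41. EDEM1, which directs misfolded glycoproteins to degradation, had 368, 383 and 351 for shARID1B.2 and 1162, 1439 and 1314 for shARID1B.3, with 1555 to 1645 in the control (-1.82 ± 0.071, adjusted p = 4.61e-10). HYOU1, a chaperone, had 4309, 4302 and 4219 for shARID1B.2 and 11935, 12559 and 12639.6 for shARID1B.3, with 15021 to 15754 in the control (-1.53 ± 0.027, adjusted p = 8.55e-13). In both genes the control lay above the 2 groups, and shARID1B.2 was the further from it. HSPA5, the main chaperone of the compartment, was lower by less (-0.79), and DNAJB9, its cochaperone, was higher (1.09). HSPA1A (-1.52) shares reads with the near-identical HSPA1B (-0.41), so that the split between them is uncertain.

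Immediate early genes, which growth factor signalling through ERK switches on within minutes, had the next lowest median. Of 30 tested, 23 were lower for shARID1B.2 and 4 higher, 14 and 3 of them by over 1, and the median was -0.86. EGR1, a zinc finger factor, had 1321, 1501 and 1379 for shARID1B.2 and 7123, 7037 and 7018 for shARID1B.3, with 2759 to 2857 in the control (-2.33 ± 0.041, adjusted p = 8.52e-13). The control lay between the hairpins. Its relatives EGR3 (-2.58) and EGR2 (-2.31) and the ERK feedback inhibitor SPRY4 (-2.08) had the other largest differences. SPRY4 had 1598, 1733 and 1715 for shARID1B.2 and 7097, 7120.4 and 7146 for shARID1B.3, with 5615 to 6016 in the control. FOS (-1.18) and JUN (-0.51), the subunits of AP-1, were lower, whereas FOSB was higher, with 63.9, 53.2 and 51.6 for shARID1B.2 and 13.9, 17.1 and 19.9 for shARID1B.3 (1.68 ± 0.21, adjusted p = 1.55e-05).

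Cell cycle genes were lower for shARID1B.2 in larger numbers and by smaller amounts. Of 43 S-phase genes, 36 were lower and 3 higher (32 and 6 with scaling to total reads), with a median of -0.44. Of 54 G2/M genes, 40 were lower and 3 higher (36 and 11 with scaling to total reads), with a median of -0.27. PCNA, the sliding clamp of replication, had 4159, 4221 and 4172 for shARID1B.2 and 9074, 9225 and 9130.5 for shARID1B.3, with 10212 to 10524 in the control (-1.13 ± 0.022, adjusted p = 2.01e-12). RRM2, the ribonucleotide reductase subunit, had 5239, 5207 and 5237 for shARID1B.2 and 11842, 11788 and 12008 for shARID1B.3, with 11618 to 11715 in the control (-1.18 ± 0.021, adjusted p = 1.11e-12). For RRM2 the shARID1B.3 libraries were just above the control, and those of shARID1B.2 far below. The fork protein TIPIN (-1.35), the checkpoint adaptor CLSPN (-1.01), the CDK subunit CKS1B (-1.04), condensin SMC4 (-0.86), the mitotic kinase AURKA (-0.78), the tubulin TUBB4B (-0.75) and the proliferation marker MKI67 (-0.50) were lower as well. All 3 shARID1B.2 libraries lay below the control for 42 of 43 S-phase genes and 51 of 54 G2/M genes, and all 3 shARID1B.3 libraries for 28 and 34. Over all genes tested these shares were 37.5% for shARID1B.2 and 34.9% for shARID1B.3.

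Of 21 genes that act in G1, 14 were lower for shARID1B.2 and 2 higher, with a median of -0.40. CCND1, cyclin D1, had 18269.7, 19129 and 19087 for shARID1B.2 and 31459.99, 34505 and 32021 for shARID1B.3, with 39681 to 39769.6 in the control (-0.79 ± 0.034, adjusted p = 9.66e-10). Both groups lay below the control, shARID1B.2 further. The repressor E2F7 (-1.07) and the inhibitors CDKN2B (-0.80) and CDKN2C (-0.75) were also lower, and CCNE1 (0.64) and CCND3 (0.39) were the genes called higher.

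The MYC network moved in both directions. MYCN (chr2:15940564-15947007, plus strand), the amplified oncogene of these cells, had 80175, 77312 and 80529.6 for shARID1B.2 and 165689, 148109 and 158121 for shARID1B.3, with 120355 to 124192 in the control (-0.99 ± 0.036, adjusted p = 2.9e-10). The control libraries lay between the hairpins. The MAX partners that repress MYC targets were higher for shARID1B.2, with MXD1 at 1.49, MXD4 at 0.88 and MXI1 at 0.83. MXD1 had 771, 831 and 851 for shARID1B.2 and 306, 289 and 279 for shARID1B.3, with 584 to 598 in the control. Of 12 genes of the network, 3 were lower and 7 higher.

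Of the 35 lists, the replication-dependent histone genes had the highest median difference. These messages mostly end in a stem-loop and lack a poly(A) tail, so that polyadenylated libraries hold the part of them that has one. Of 54 genes listed, 22 passed the filter on low values, and 20 of these were higher for shARID1B.2 and 0 lower, with a median of 1.39. As a gene can pass that filter through the group in which it is high, these counts are a description of the genes that passed. H2BC12 (chr6:27146418-27146798, minus strand) had 549, 536 and 571 for shARID1B.2 and 54.8, 47.5 and 52.7 for shARID1B.3, with 219 to 256 in the control (3.39 ± 0.091, adjusted p = 2.2e-11). H2AC6 had 198, 191 and 219.6 for shARID1B.2 and 22.9, 22.8 and 25.0 for shARID1B.3, with 34.1 to 36.0 in the control (3.05 ± 0.13, adjusted p = 1.31e-09). H3C6 had 314, 323 and 341 for shARID1B.2 and 44.8, 44.7 and 31.9 for shARID1B.3, with 81.0 to 89.5 in the control (2.99 ± 0.14, adjusted p = 2.11e-09). In these the shARID1B.2 libraries stood above the control and, most of all, above shARID1B.3. H2AC18 had the largest value (3.71), but its groups overlapped, with 103, 47.5 and 92.5 for shARID1B.2 and 53.8, 2.85 and 0 for shARID1B.3, and it has a near-identical copy. Histone genes of a family resemble each other, and how reads were split between them is uncertain. All 3 shARID1B.2 libraries lay above the control for 18 of the 22 genes and all 3 shARID1B.3 libraries below it for 9. Over all genes tested these shares were 34.6% and 34.9%.

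Interferon-stimulated genes, which answer to double-stranded RNA and viral infection, also leaned to the higher side. Of 33 genes listed, 30 passed the filter, and 18 of these were higher for shARID1B.2 and 3 lower, 12 and 0 of them by over 1, with a median of 0.72. Members with the largest differences had low levels. IFIT1, which binds foreign RNA, had 74.4, 79.9 and 73.8 for shARID1B.2 and 18.9, 13.3 and 11.2 for shARID1B.3, with 21.1 to 23.6 in the control (2.34 ± 0.22, adjusted p = 1.11e-06). MX1, an antiviral GTPase, had 32.4, 22.0 and 32.9 for shARID1B.2 and 3.98, 6.65 and 6.91 for shARID1B.3, with 21.1 to 35.8 in the control (2.14 ± 0.31, adjusted p = 6.07e-05). For IFIT1 the control lay between the hairpins, and for MX1 the shARID1B.3 libraries were the ones away from it. MX2 (2.80) and IFI44L (2.34) had the other largest differences. ISG15, a ubiquitin-like modifier, was not called, with 11.4, 17.4 and 24.0 for shARID1B.2 and 14.9, 17.1 and 21.6 for shARID1B.3 (-0.07). The genes called lower were OAS1 (-0.56), OAS3 (-0.31) and EIF2AK2 (-0.09). All 3 shARID1B.3 libraries lay below the control for 21 of the 30 genes (70.0%, against 34.9% of all genes tested). All 3 shARID1B.2 libraries lay below it for 9 (30.0%, against 37.5%) and above it for 11 (36.7%, against 34.6%), near the shares of all genes.

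The interferon-stimulated response element was searched on both strands as GAAA, any pair of bases (NN) and GAAA again. A promoter of 19 of 26 list genes found in RefSeq held it (73.1%), against 4.38% of all 27305 genes. This share too describes the list, made of interferon-stimulated genes, and not these libraries. The 18 tested genes with a match had a median difference of 0.79. The other tested genes of the list, which include those with no promoter found to search, had 0.23. The promoters of IFIT1 and MX1 (RefSeq, GRCh38.p14, plus strand) are shown with the element in capitals.
IFIT1, chr10:89392373-89392672: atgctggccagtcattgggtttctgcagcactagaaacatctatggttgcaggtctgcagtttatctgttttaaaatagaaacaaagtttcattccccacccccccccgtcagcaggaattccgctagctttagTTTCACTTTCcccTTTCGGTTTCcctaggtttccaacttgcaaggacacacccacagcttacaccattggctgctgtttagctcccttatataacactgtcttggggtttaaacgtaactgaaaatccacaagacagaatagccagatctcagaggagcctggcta
MX1, chr21:41420308-41420607: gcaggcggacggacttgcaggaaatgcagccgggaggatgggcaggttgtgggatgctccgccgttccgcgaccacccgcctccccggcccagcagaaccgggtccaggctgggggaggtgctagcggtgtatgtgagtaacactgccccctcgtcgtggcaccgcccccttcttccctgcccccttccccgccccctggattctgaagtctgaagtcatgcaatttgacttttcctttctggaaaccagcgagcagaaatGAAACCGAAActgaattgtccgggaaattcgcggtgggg

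Matrix genes leaned to the higher side, with large exceptions. Of 49 collagen and laminin chains listed, 38 passed the filter on low values. Of these, 21 were higher for shARID1B.2 and 7 lower, with a median of 0.32. As with the histone genes, a gene can pass through the group in which it is high. Beside COL26A1, the chains COL8A2 (2.14) and COL11A1 (1.96) were higher. LAMC1, the gamma chain of most laminins, was the main exception, with 5083, 5134 and 5089 for shARID1B.2 and 17272, 18027 and 17871 for shARID1B.3, against 16125 to 16667 in the control (-1.80 ± 0.023, adjusted p = 1.44e-13). The shARID1B.2 libraries were the ones far from the control.

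The integrins, receptors for these proteins, were divided as well, with 8 of 20 subunits tested higher and 5 lower (26 listed, median 0.20). ITGB1 (chr10:32900319-33005792, minus strand), the beta subunit shared by most collagen and laminin receptors, had 7750.1, 7673 and 7678 for shARID1B.2 and 22418, 24242 and 23491 for shARID1B.3, against 23850.3 to 24712 in the control (-1.60 ± 0.028, adjusted p = 8.47e-13). The shARID1B.3 libraries were near the control and those of shARID1B.2 far below it. ITGA8, its partner for RGD ligands, had 49.0, 52.1 and 40.9 for shARID1B.2 and 8.96, 1.90 and 11.2 for shARID1B.3, against 63.4 to 80.6 (2.77 ± 0.45, adjusted p = 0.000168). ITGB3 (1.55) and ITGB5 (1.55), the beta partners of alpha V, were higher.

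Cadherins, which join cells, held a like opposition between CDH2 (-1.12), neuronal cadherin, and CDH11 (1.60), the mesenchymal one. CDH2 had 6484, 6910.1 and 6470.04 for shARID1B.2 and 14013, 14609 and 14431 for shARID1B.3, with 16707 to 16973 in the control. CDH11 had 1306, 1394 and 1318 for shARID1B.2 and 489, 382 and 461 for shARID1B.3, with 1852 to 1936 in the control. Both genes were below the control in all 6 libraries, CDH2 most for shARID1B.2 and CDH11 most for shARID1B.3. Of 19 cadherins listed, 11 passed the filter on low values. Of these, 6 were higher, CDH22 (1.40) and CDH7 (0.92) among them, and 2 lower.

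Axon guidance genes, which steer neurites and migrating neural crest cells, were mostly higher for shARID1B.2. Of 61 ligands and receptors listed, 58 passed the filter, and 39 of these were higher and 10 lower, with a median of 0.39. The semaphorin ligands SEMA6B and SEMA3F, the Slit receptor ROBO2 and the ephrin receptor EPHB6 had the largest differences. SEMA6B had 17.5, 12.7 and 30.2 for shARID1B.2 and 3.98, 2.85 and 0.86 for shARID1B.3, with 1.12 to 3.08 in the control (2.60 ± 0.47, adjusted p = 0.000339). ROBO2 had 488, 447 and 509.5 for shARID1B.2 and 149, 108 and 132 for shARID1B.3, with 276 to 322 in the control (1.89 ± 0.11, adjusted p = 1.59e-08). The groups did not overlap in either gene. SEMA3F was at 1.76 and EPHB6 at 1.60. All 3 shARID1B.3 libraries lay below the control for 36 of the 58 genes (62.1%, against 34.9% of all genes tested). All 3 shARID1B.2 libraries did so for 21 (36.2%, against 37.5%), near the share of all genes.

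Among targets of YAP and TEAD, the transcriptional end of the Hippo pathway of growth control, 10 of 19 were higher and 6 lower (median 0.26). AMOTL2, a feedback inhibitor of YAP, had 1057, 1109 and 1119 for shARID1B.2 and 188, 213 and 189.97 for shARID1B.3, with 563 to 669.6 in the control (2.47 ± 0.062, adjusted p = 1.36e-11). The control lay between. CCN2, a matricellular protein, had 151, 176 and 153 for shARID1B.2 and 29.9, 41.8 and 31.9 for shARID1B.3, with 252 to 307 in the control, above both (2.19 ± 0.16, adjusted p = 1.01e-07). CRIM1 (1.98) and ANKRD1 (1.71) were higher too.

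TGF-beta genes showed no common direction, with 12 of 28 lower, 11 higher and a median of -0.11. With scaling to total reads 7 were lower and 12 higher. The ligands themselves parted: BMP2 was lower, with 56.0, 62.5 and 54.2 for shARID1B.2 and 247, 266 and 240.1 for shARID1B.3 (-2.11 ± 0.11, adjusted p = 4.99e-09), whereas TGFB2 was higher, with 146, 126 and 151 for shARID1B.2 and 33.9, 34.2 and 34.5 for shARID1B.3 (2.01 ± 0.13, adjusted p = 5.99e-08). The control was between the groups in both, at 101 to 137 and 101 to 107. TGFB3 (1.38) and the receptor BMPR1B (1.48) were higher.

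Receptor tyrosine kinases, among them those that drive neuroblastoma growth, went both ways, with 13 of 27 higher and 9 lower (median 0.20). ALK, mutated in a part of neuroblastomas, had 630.2, 534 and 597 for shARID1B.2 and 323, 218 and 279 for shARID1B.3, with 868 to 877 in the control (1.12 ± 0.12, adjusted p = 4.31e-06). RET, the receptor for ligands of the GDNF family, had 5102, 4949 and 5138 for shARID1B.2 and 9427, 9569 and 9181 for shARID1B.3, with 29923 to 31384 in the control (-0.89 ± 0.025, adjusted p = 3.72e-11). Both receptors were below the control in all 6 libraries, RET most for shARID1B.2 and ALK most for shARID1B.3. PDGFRA (1.80), KIT (1.61) and GFRA2 (1.43) were higher for shARID1B.2 and FGFR3 (-1.71) lower.

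Subunits of the remodeller differed by smaller amounts. Of 30 subunits of BAF, PBAF and ncBAF, 13 were lower for shARID1B.2 and 12 higher, 1 of them by over 1, and the median was -0.03. With scaling to total reads 11 were lower and 15 higher, and the median was 0.08. SMARCC1, a scaffold subunit on which the complex assembles, had 5469, 5140.01 and 5187 for shARID1B.2 and 9921, 9841 and 10111 for shARID1B.3, with 9985 to 10303 in the control (-0.92 ± 0.028, adjusted p = 5.51e-11). The shARID1B.3 libraries were near the control, and those of shARID1B.2 well below it. SMARCD3 (1.18), an accessory subunit, and SMARCA2 (0.72), the alternative ATPase, were higher. ARID2, the PBAF counterpart of ARID1A, had 3619, 3582 and 3694 for shARID1B.2 and 2372, 2239.5 and 2387 for shARID1B.3, with 3770.3 to 4114 in the control (0.64 ± 0.031, adjusted p = 3.73e-09). The ATPase SMARCA4 was lower by less (-0.08), and the core subunit SMARCB1 was not called, with 4757, 4783 and 4703 for shARID1B.2 and 4777, 4687 and 4744 for shARID1B.3 (0.00).

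The machinery that processes and loads hairpins was not equal in the groups. DICER1, which cuts hairpins into guide duplexes, had 9792, 9075 and 9689 for shARID1B.2 and 3531, 3176 and 3427 for shARID1B.3, with 8310.5 to 8732 in the control (1.49 ± 0.040, adjusted p = 2.24e-11). DROSHA, which releases hairpins from primary transcripts, had 4440.5, 4485 and 4397 for shARID1B.2 and 2287, 2297 and 2286 for shARID1B.3, with 4292 to 4427 in the control (0.95 ± 0.025, adjusted p = 1.8e-11). In both genes the shARID1B.2 libraries were at or just above the control level and those of shARID1B.3 far below it. The Argonautes parted, AGO4 higher (0.89) and AGO1 (-0.75) and AGO2 (-0.38) lower, and the exporter XPO5 was lower (-0.72). XPO5 had 6279.5, 6235 and 6170.4 for shARID1B.2 and 10209.9, 10219.8 and 10257 for shARID1B.3, with 9531 to 9696 in the control. Of 13 genes of the list, 6 were lower and 6 higher.

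The identity of the cells was checked with markers. Of 13 defining neuroblastoma markers none was at 0 in all 6 libraries. Their summed value was 154011.7 to 162980.8 for shARID1B.2, 224381.1 to 252936.3 for shARID1B.3 and 229103.7 to 234356.5 for the control. MYCN made the largest part of it, with 77312 to 80530 for shARID1B.2, 148109 to 165689 for shARID1B.3 and 120355 to 124192 for the control. The gap between the sums was thus mostly that of MYCN, and the sum does not describe the other markers. Of the 13, 8 were lower for shARID1B.2, with GAP43 of growth cones at -1.84 and the granin CHGB at -0.64, and 3 were higher, with STMN2 at 1.02. Of 20 markers of other cell types 10 passed the filter and KRT5 was at 0 in all 6 libraries. The summed value of the 20 was 20168.6 to 20636.4 for shARID1B.2 and 19912.2 to 20601.1 for shARID1B.3, so that the sum did not separate the groups, and 23226.5 to 23450.7 for the control. Abundant members within this sum went opposite ways. COL3A1 (3006 to 3303 for shARID1B.2 against 922 to 1133 for shARID1B.3) and DCN (4617 to 4785 against 2720 to 3305) were higher. PDGFRB (4612 to 4842 against 7785 to 8821) was lower. Of the 10 tested, 4 were higher for shARID1B.2, among them VWF (1.95) and COL3A1 (1.63), and 2 lower, PTPRC (-1.46) among them. In bulk RNA, fewer cells with a transcript and less of it per cell cannot be told apart. Of 79 cytosolic ribosomal proteins, 20 were lower and 26 higher (9 and 56 with scaling to total reads), and all 79 lay within -0.57 and 0.50. Of 13 mitochondrially encoded protein genes, 5 were lower and 3 higher (2 and 7 with scaling to total reads).

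The series holds 2 more pairs of conditions that carry one label root each, with no library in common with the 6 above. The pair shARID1A.2 and shARID1A.4 differed in 13715 of 17284 genes tested (79.4%), 4077 of them by over 1 (23.6%), with 1667 lower (9.64%) and 2410 higher (13.9%). The pair shARID1A/B.2.3 and shARID1A/B.4.2 differed in 13593 of 17307 (78.5%), 3776 by over 1 (21.8%). Over the 17186 genes of the shARID1B pair, the differences of shARID1A.2 minus shARID1A.4 had the same sign in 66.9% of genes (Pearson's r of 0.493 across genes, which are not independent replicates). Of the 902 genes lower by over 1 for shARID1B.2, 730 had the same sign there (80.9%), and of the 1404 higher genes 1129 (80.4%). The differences of shARID1A/B.2.3 minus shARID1A/B.4.2 had the same sign in 45.9% of all genes (r of -0.127), in 377 of the 902 (41.8%) and in 612 of the 1404 (43.6%).

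The gene groups can be set side by side in the same way. The ATF4 group had a median of -2.02 in shARID1A.2 minus shARID1A.4 and of 1.66 in shARID1A/B.2.3 minus shARID1A/B.4.2. For the immediate early genes these medians were -1.11 and 0.39, and for the histone genes 1.40 and -0.55. The S-phase genes had 0.02 in the shARID1A pair and -0.34 in the combinations. The interferon genes had 0.08 and 0.58, with 19 higher and 5 lower in the combinations. For these lists the median of the combinations, as subtracted, thus had the sign of the shARID1B pair. For the ATF4, immediate early and histone genes it had the opposite one. By label, the combinations set shARID1B.3 before shARID1B.2. VGF had -3.59 in the shARID1A pair and 1.28 in the combinations, and SULF2 3.98 and -1.54. All 12 of the largest lower genes were called lower for shARID1A.2 against shARID1A.4 as well, where 39.4% of all genes were. Of the 12 largest higher genes 9 were called higher there, against 40% of all genes, CALN1 (-0.74) was called lower, and DPT and BLOC1S5-TXNDC5 were not called. In shARID1A/B.2.3 against shARID1A/B.4.2, where 39.1% of all genes were called lower and 39.5% higher, 1 of the 12 lower genes was called lower and 7 higher, and 3 of the 12 higher genes were called higher and 7 lower.

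The 3′ UTRs of the genes were then searched for words of 7 letters that go with the difference. Differences were adjusted for UTR length and GC content and clipped at 2 either way, over 13494 tested genes with an annotated 3′ UTR (GENCODE release 29, 1 transcript a gene, sense strand only). Each of 16384 words was scored by the mean adjusted difference of the genes with it in their 3′ UTR. The mean was multiplied by the square root of their number and divided by the SD over all genes, which favours common words. The word with the lowest score was TCTGGTA, held by 1234 genes (9.14%). Their median difference was -0.16, against 0.01 for genes without it, and 11.02% of them were lower by over 1, against 4.38%. Of 673 genes lower by over 1 with a 3′ UTR, 136 held it (20.2%). By the number of matches the median was 0.01 with none, -0.15 with 1, -0.23 with 2 and -0.14 with 3 or more, the last over 27 genes.

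The word with the highest score was ACTCATT, held by 1744 genes (12.9%). Their median difference was 0.21, against -0.03, and 15.6% of them were higher by over 1, against 7.40%. Of 1142 genes higher by over 1 with a 3′ UTR, 272 held it (23.8%). By the number of matches the median was -0.03 with none, 0.18 with 1, 0.31 with 2 and 0.62 with 3 or more. The next words on either side overlapped these, ATCTGGT and CTGGTAT for the first, and CTCATTA and AACTCAT for the second. The words were picked for the difference itself, so that these values are a description with no test.

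Each word can be read in single libraries, as the median level of the genes that hold it over the mean of all libraries, relative to the genes that do not. Genes with TCTGGTA stood at -0.13 to -0.11 for shARID1B.2 and at 0.04 to 0.06 for shARID1B.3, with 0.10 to 0.12 in the control. Among the libraries not used to pick the word, only those of shARID1A.2 were as low, at -0.12 to -0.10. Genes with ACTCATT stood at -0.19 to -0.18 for shARID1B.3 and at 0.04 to 0.07 for shARID1B.2, with 0.15 to 0.17 in the control. Here only the libraries of shARID1A.4 came near, at -0.15 to -0.13. In shARID1A.2 minus shARID1A.4, TCTGGTA ranked 5 from the lowest of the 16384 words and ACTCATT 2 from the highest. The words that led the combinations, CAGGTTA and TGCATTC, ranked 2696 from the lowest and 760 from the highest in the shARID1B pair. In shARID1A.2 minus shARID1A.4 they ranked 1 from the highest and 2 from the lowest, so that the leading words of both other pairs were near the ends of its order. In the combinations, TCTGGTA ranked 9665 from the lowest and ACTCATT 11909 from the highest.

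The matches of genes named above are shown first, each as 27 bases of the transcript strand with the word in capitals (GRCh38). Of the 12 largest lower genes, ABRACL and SLC16A6 held TCTGGTA, and of the 10 largest higher genes with a 3′ UTR, ART4, CALN1 and AIF1L held ACTCATT. SLC7A11 of the ATF4 group held 2 matches of the first word, of which the one nearer the stop codon is given.
ABRACL, chr6:139042932-139042958: attttttgttTCTGGTAaactggaata
SLC16A6, chr17:68267060-68267086: ttagtgacatTCTGGTActtctagatt
SLC7A11, chr4:138168591-138168617: gtcttatgtgTCTGGTAaaattgtttc
ART4, chr12:14826501-14826527: tcctttaagaACTCATTagaaatgtga
CALN1, chr7:71786568-71786594: tctgcaactgACTCATTttcaggaggt
AIF1L, chr9:131120851-131120877: gctgatccccACTCATTccacacctct
A few more genes were chosen after their values were seen, as abundant messages with large differences. Those shown hold the word that goes with the direction of their difference. SH2B3, searched with them, held both words in its 3′ UTR and is not shown. NUS1, a subunit of the enzyme that makes dolichol, had 804, 732 and 748 for shARID1B.2 and 5308, 5316 and 5309.5 for shARID1B.3, with 4729 to 4833 in the control (-2.80 ± 0.037), and held 5 matches of TCTGGTA. TXNRD1, thioredoxin reductase, had 2034, 1952 and 2030.1 for shARID1B.2 and 13661, 13433 and 13737 for shARID1B.3, with 10307 to 10681 in the control (-2.76 ± 0.026), and held 1. For these messages the shARID1B.2 libraries were the ones below the control.
NUS1, chr6:117707631-117707657: agagtgttgcTCTGGTAttctgggttc
TXNRD1, chr12:104349306-104349332: taaaagttttTCTGGTAgctttagctt
TXNDC5, a disulphide isomerase of the endoplasmic reticulum, had 12371, 12757 and 12240.3 for shARID1B.2 and 1599.8, 1616 and 1452 for shARID1B.3, with 12096 to 12698 in the control (3.00 ± 0.038), and held 1 match of ACTCATT. MFSD6, a membrane transporter, had 2985, 2959 and 2958 for shARID1B.2 and 377, 327 and 361 for shARID1B.3, with 1507 to 1519 in the control (3.06 ± 0.051), and held 2. For these it was the shARID1B.3 libraries that lay below the control.
TXNDC5, chr6:7882292-7882318: tatctcattaACTCATTgaaagattcc
MFSD6, chr2:190500337-190500363: aaatatctaaACTCATTaacatggaaa

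In the transcripts of the targeted genes, ARID1A (ENST00000324856.12, 8583 bases) held 1 match of ACTCATT, near the end of its coding part, and 0 of TCTGGTA, and ARID1B held 0 of either. The match in ARID1A is shown because ARID1A was the low target in these libraries.
ARID1A, chr1:26780691-26780717: ccgttgatgaACTCATTggtttcacaa
DICER1 and DROSHA held 1 match of ACTCATT each outside their 3′ UTR and 0 within it. As no file used here gives the sequences of the hairpins, the relation of either word to a guide strand was not tested.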

How the data were processed

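Polyadenylated RNA of SK-N-BE(2) cells was sequenced from stranded libraries on a NovaSeq instrument. As signal, the authors deposited reads over a size factor (0.864 to 1.158 in the 6 libraries) for 60728 genes. The submitters' processing notes name GRCh38, STAR 2.5.3a, RSEM 1.3.0 and DESeq2 1.26.0 without roles, and the annotation is not given in the sources used here. Whole reads were recovered for 100% of values (within 0.1 read, largest deviation 0.00663). The authors' 3 comparison tables, which hold log2 fold changes and p-values against the control, were not used. Coordinates came from GENCODE release 29, which held 58541 of the gene identifiers without their version and 40401 with it.

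Groups followed the labels. The filter of edgeR on low reads was applied, and log2(signal + 1), with 1 as pseudocount, entered limma (trend, two-sided) over the 6 libraries, with Benjamini-Hochberg adjustment over 17186 genes. The pseudocount understates differences of low genes. Values of 0 in some libraries of a group can instead widen a difference on this scale, as for BLOC1S5-TXNDC5 (6.19, against 2.95 with edgeR). A gene can pass the filter through the group in which it is high, so that counts of list members describe the genes that passed. Replicates differed by more than sampling noise (chi-square per degree of freedom 2.046 to 4.18), so each counted as a separate library. The p-values measure the spread between these cultures of 1 cell line. The 2 hairpins and all 35 gene lists were chosen with earlier results of these data known. Named genes were ARID1A, ARID1B, the 12 largest differences each way (adjusted p-value under 0.05, mean of at least 50, groups apart, no clone-based name), and per list the 4 largest called members and its defining ones. Other members that make up a count of 5 or fewer, and the genes added for their UTR words, were named after their values were seen. Some list members are not reported here. S-phase and G2/M lists were those of Seurat 5.3.0. Alternatives were edgeR and DESeq2 on recovered reads, pseudocounts of 0.5 and 5, other filters and scalings, 7 conditions, a replicate block and each library left out. Words of 6 and 8 letters, words without adjustment, and edgeR with the block for lists were chosen after seeing the data. R 4.3.3 with limma 3.58.1, edgeR 4.0.16 and DESeq2 1.42.0, and pandas 2.3.3, numpy 2.4.6 and matplotlib 3.10.9 in Python 3.11.15 were used, and the tests were checked on simulated data.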

Additional observations from a re-analysis of the deposited data

Results flagged for a closer look

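The difference between the hairpins was not the same as that between the hairpins of the other labels, by limma's interaction test over 12 libraries each. The difference of shARID1B.2 minus shARID1B.3 departed from that of shARID1A.2 minus shARID1A.4 in 11820 of 18116 genes (65.2%) and from that of shARID1A/B.2.3 minus shARID1A/B.4.2 in 13466 of 18018 genes (74.7%), at an adjusted p-value under 0.05.

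For ARID1A, the shARID1B difference minus the shARID1A difference was -0.30 (adjusted p = 6.66e-06), and minus that of the combinations -0.43 (adjusted p = 1.91e-08). For ARID1B these values were 0.18 (adjusted p = 9.1e-05) and -0.73 (adjusted p = 5.78e-12). ARID1A thus differed more between shARID1B.2 and shARID1B.3 than within either other pair, and ARID1B differed in the opposite direction within the combinations. By label, the combinations were subtracted in the reverse order of the shARID1B hairpins. The labels do not state the genes that were low, and whether this order bears on the sign or on the count of genes above was not tested. Groups of 3 libraries were too small for the check on single libraries that stand apart.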

How the results depend on the processing

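The differences of ARID1A and ARID1B and the counts of called genes kept their direction and their side of the threshold under all alternatives run. The count of 12005 called genes ranged from 10760 with DESeq2 to 12386 without a filter on low values (31234 genes tested), and that of 2306 over 1 from 1667 with at least 10 reads in each library to 3209 without a filter. With each library left out, the counts were 11310 to 11695 and 2288 to 2347, ARID1A was at -0.384 to -0.354 and ARID1B at -0.291 to -0.27. A fit with the replicate block gave 11862 and 2315 genes. Same-numbered libraries of the groups did not deviate together (correlations of -0.0058, 0.0143 and -0.0913, others -0.0505 to 0.0594), and no library correlated best with its own number, so they share a number only. Scaling to total reads moved the share of higher calls from 49.4% to 60.6%, and upper-quartile scaling to 56.5%. Over 26 named genes, 410 of 411 values under alternatives kept direction and call, and the exception was BLOC1S5-TXNDC5 with DESeq2 (3.04, adjusted p = 0.329). Of 280 counts of called list members, 271 stayed within 1.5 times the main count, and the 9 others all came from scaling to total reads and are given beside the lists. Words of 6 letters gave CTGGTA and CTCATT (mean adjusted difference of -0.114 and 0.108), of 8 letters TTCTGGTA and TACTCATT (-0.233 and 0.312), and without adjustment the same words as reported led (-0.198 and 0.228, against -0.206 and 0.226).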

Other observations

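Several gene groups outside the comparisons above went both ways between the hairpins, and are given as values. Among p53 targets 8 of 20 were lower for shARID1B.2 and 10 higher, against 35.3% and 34.5% of all genes. CDKN1A, the p21 inhibitor of CDKs, was lower (-1.15 ± 0.15), with 49.9, 67.1 and 51.6 for shARID1B.2 and 123, 137 and 116 for shARID1B.3, whereas SPATA18 (3.36 ± 0.27), TNFRSF10B (1.25) and MDM2 (0.87) were higher. In the BCL2 family, 4 of 14 genes were lower and 5 higher, and the death effectors PMAIP1 (-1.61 ± 0.066) and BCL2L11 (-1.10) were the ones lower by over 1. PMAIP1 had 191, 198 and 190.3 for shARID1B.2 and 608, 613 and 553 for shARID1B.3, with 602 to 675 in the control. In cholesterol synthesis and uptake 8 of 27 were lower and 14 higher. HMGCS1, an early enzyme of synthesis, was lower (-1.27 ± 0.021), and the sterol exporters ABCA1 (1.75 ± 0.14) and ABCG1 (1.33 ± 0.078) were higher. Of 13 genes of fatty acid synthesis 9 were lower, with ACLY at -0.76, ACSS2 at -0.69 and ACSL3 at -0.50, and 2 higher, with SCD5 at 1.24 (7 and 4 with scaling to total reads).

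Of the adrenergic factors that hold neuroblastoma cells in their sympathetic state, 12 of 21 were lower and 7 higher. SATB1, a chromatin organiser, was among those higher (1.56), and TBX2 (-0.68) and KLF7 (-0.59) had the largest lower differences. Of mesenchymal factors and markers 9 of 27 were lower, with RUNX2 at -2.38 and FOSL1 at -1.48, and 12 higher, with POSTN at 2.02. Of catecholamine genes 3 of 9 were lower, with SLC18A1 at -0.94 and CYB561 at -0.93, and 4 higher, with MAOA and with GCH1, of cofactor synthesis, at 1.52. Of granule and vesicle genes 15 of 31 were lower and 13 higher, with SV2A at -0.88, SV2C at 0.73 and SYN3 at 1.56, so that the -4.33 of VGF was not shared by the group. Of Notch genes 8 of 16 were lower, with DLK1 at -1.26 and HES1 at -1.13, and 5 higher, with the ligand DLL1 at 2.51. Of WNT genes (43 listed) 7 of 30 tested were lower, with ROR1 at -1.96 and FZD5 at -1.22, and 15 higher, with FZD6 at 1.31 and WNT5A at 1.23. Of glycolysis and hypoxia genes 12 of 23 were lower, with P4HA1 at -0.87, and 6 higher (12 and 10 with scaling to total reads), with ADM at 1.90 and the glucose transporter SLC2A1 at 1.25. Of contractile actin genes 12 of 27 were lower and 9 higher (11 and 12 with scaling to total reads). Of NF-kB genes (22 listed) 2 of 12 tested were lower and 5 higher.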
